A study of Caenorhabditis elegans with 9 samples.

Results

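The cytosolic ribosomal protein genes of *C. elegans* were taken as the genes whose symbol is *rps-* or *rpl-* followed by a number, with or without a final capital letter. This rule, which uses no measured value, found 78 of the 46926 gene identifiers counted. Of these, 31 are *rps* genes, for proteins of the small (40S) subunit, and 47 are *rpl* genes, named for proteins of the large (60S) subunit. Messenger RNA was sequenced from whole worms of the wild-type strain N2 under dietary restriction (DR) on plates. Worms had eaten HT115 *E. coli* until day 1 of adulthood. They then spent 24 h on plates with no bacteria (DR0), with diluted HT115 (DR1) or with undiluted HT115 (AL, ad libitum), and 3 libraries were made for each. Conditions were taken from the sample titles, while a second label of the DR0 samples reads "dietary restriction 1 (DR0)". All plates, AL included, held 10 µg of kanamycin per ml to keep the bacteria from growing. Nothing in the sources tells whether libraries of one condition were made from separate cultures. The p values therefore measure only the spread between these libraries, which may be technical.

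Each ribosome carries 1 copy of most of these proteins, folded around the ribosomal RNAs, so cells need the proteins in near-equal amounts. Their mRNAs are short, abundant and made in almost every cell, and in the adult worm the germ line and the intestine are large consumers of new ribosomes. In mammals these mRNAs carry a pyrimidine tract at their start through which the nutrient-sensing TOR kinase controls their translation. mRNA abundance is therefore only one of the steps that set ribosome production.

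All 78 genes are annotated as protein-coding in Ensembl release 115, on the genome build WBcel235 that the counts also use. They are spread over all the chromosomes, with 23 on I, 10 on II, 18 on III, 17 on IV, 8 on V and 2 on X. The X-linked genes are *rpl-11.2* and *rpl-25.1*. The summed exon length was 236 to 1456 bases with a median of 532 bases, and 13 genes carry a small nucleolar RNA in an intron. Exons of 14 genes overlap an exon of another gene by up to 110 bases, and reads there were counted for neither gene, since the counting ignored strand and used the union mode of htseq-count, which leaves out reads on exons of more than 1 gene. The RefSeq gene table gives *rpl-24.2* the name *rsl-24D1*, which marks a ribosome assembly factor related to RPL-24 and not a part of the finished ribosome. By its symbol it is kept among the 60S genes in every count. It names *rpl-37* as *rpl-37.2*.

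Of the 78 genes, 77 passed edgeR's filter on low counts and were tested with 14332 genes in all. The gene left out was *rpl-42*, with raw counts of 5, 9 and 4 in DR0, of 5, 3 and 1 in DR1, and of 3, 0 and 1 in AL. The libraries held 9203611 to 12012750 counts, of which 1010638 to 1628871 fell on ribosomal protein genes. Levels are given as CPM, the count per 1000000 of the library size after TMM scaling, which aligns libraries on the assumption that most genes do not differ. Between genes, levels are compared only as RPKM, which is CPM per 1000 bases of exon. A change was called at a Benjamini–Hochberg adjusted p under 0.05 from edgeR's quasi-likelihood test. Against AL, 5649 of the 14332 genes were not called in DR0 and 5724 in DR1, so by this measure most genes did differ.

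Ribosomal protein mRNA made up the largest share of the counts in DR0 and the smallest in DR1. The share was 15.2%, 15.1% and 15.3% in the DR0 libraries, 10.6%, 11.2% and 10.3% in the DR1 libraries, and 12.7%, 13.1% and 12.8% in the AL libraries. The mean was 15.2 ± 0.0755% in DR0, 10.7 ± 0.432% in DR1 and 12.9 ± 0.193% in AL (SD, n = 3 each). No library of a condition overlapped those of another. The share needs no scaling between libraries, but it depends on what else is in the total. Without the 20 other genes of highest count it was 17.5% in DR0, 12.3% in DR1 and 14.6% in AL, in the same order. The genes of both subunits had the same order of shares.

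**Figure D1:**
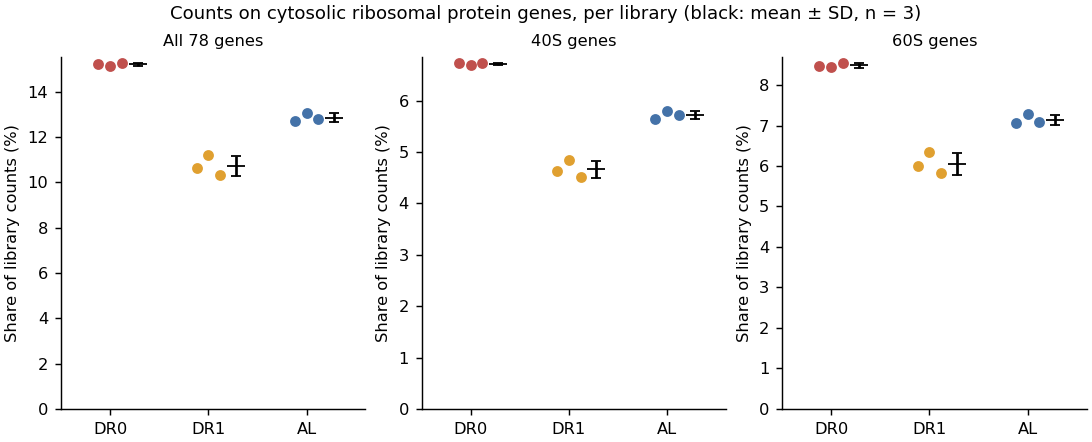
Share of each library's counts (%, vertical axis, from 0) on all 78 cytosolic ribosomal protein genes and on those of the 40S and the 60S subunit, in DR0, DR1 and AL. Each coloured point is a library and the black mark is the mean ± SD (n = 3); for all genes, DR0 libraries sit at 15.1% to 15.3%, DR1 libraries at 10.3% to 11.2% and AL libraries at 12.7% to 13.1%.

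In worms without bacteria, most ribosomal protein mRNAs were modestly higher than in fully fed worms, except when a trend on gene length or on expression level was removed. Between DR0 and AL, 54 of the 77 genes rose (70.1%, against 29.6% of all genes tested) and 5 fell (6.49%, against 31% of all genes tested). The median log2 fold change was 0.20, against 0.03 over all genes tested. However, it was −0.00057 with 23 genes higher and 25 lower once a trend on gene length was removed. Of all 14332 genes, 3965 were higher and 4685 lower in that fit. Once a trend on expression level was removed, the median was 0.03 with 29 higher and 20 lower, beside 3848 and 4227 of all genes. The values between the quartiles lay from 0.07 to 0.28. The libraries of the conditions did not overlap for 55 genes that were higher and 6 that were lower in DR0, against 31.7% and 32.6% of all genes tested. Genes of the 40S subunit had a median of 0.20 and those of the 60S subunit a median of 0.18.

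The largest rise in DR0 was that of *rpl-24.2* (WBGene00004437, chromosome I, 9669415 to 9670098). Its level was 290.1, 296 and 304 CPM in DR0, 222, 210 and 218 CPM in DR1, and 140.3, 154 and 148 CPM in AL. All libraries of each condition stood apart from those of the others, and AL had the lowest level. The log2 fold change between DR0 and AL was 1.01 (s.e. 0.05, adjusted p = 5.45e-15). It was the 1 gene of the 77 past both an adjusted p under 0.05 and a 2-fold change, which 11.3% of all genes passed upwards and 8.16% downwards. Its value lay on the 2-fold line, at 0.99 without DR0 replicate 3 and 0.97 without AL replicate 1. None of the 77 genes fell past both thresholds in DR0, nor changed past both in either other comparison.

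After *rpl-24.2*, the largest rises in DR0 were *rpl-25.1*, *rpl-41.1*, *rpl-19* and *rpl-35*. The transcript of *rpl-19*, whose protein reaches across to the small subunit, was at 4063, 4044 and 4026 CPM in DR0, at 2302, 2272 and 2276 CPM in DR1, and at 2949, 2984 and 2886 CPM in AL. The conditions were clearly apart and the replicates close. The log2 fold change between DR0 and AL was 0.46 (s.e. 0.02, adjusted p = 6.46e-14).

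The 5 genes that fell in DR0 against AL were *rpl-29*, *rpl-11.1*, *rps-24*, *rps-23* and *rpl-25.2*, of which *rps-24* was chosen after its values were seen. The fall of *rps-24* was 0.15 on the log2 scale (s.e. 0.04, adjusted p = 0.00772). *rpl-29*, a short gene for a small protein at the surface of the large subunit, had the lowest value, a log2 fold change of −0.64 (s.e. 0.24, adjusted p = 0.0260). Its call was lost without any 1 of the DR0 libraries and without AL replicate 2 or 3, of which AL replicate 2 moved it most, to −0.52 (adjusted p = 0.108). DESeq2 did not make it either (adjusted p = 0.213), and it was also lost under upper quartile scaling, quantile normalization and a mean CPM minimum of 5. The fall of *rpl-25.2*, of 0.09, had an adjusted p of 0.0496 and did not pass in 14 of the other fits, over which the adjusted p ranged from 9.73e-09 to 0.713. Among these were the fits without any 1 of the DR0 libraries, without DR1 replicate 1 and without AL replicate 2 or 3. The number of genes called lower in DR0 depended on single libraries. It was 2 without AL replicate 2, 3 without AL replicate 3 or any 1 of the DR0 libraries, and 8 without DR1 replicate 2 or 3.

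With diluted bacteria most of the genes were lower than in fully fed worms and by similar amounts, except under quantile normalization. Between DR1 and AL, 69 of the 77 genes fell (89.6%, against 31.6% of all genes tested) and 1 rose (1.30%, against 28.5% of all genes tested). The median log2 fold change was −0.61, against 0.03 over all genes tested. However, under quantile normalization, which forces all libraries to one distribution of values, it was 0.0028 with 14 genes higher and 18 lower. Of all 14332 genes, 4234 were higher and 3685 lower in that fit. The values between the quartiles lay from −0.68 to −0.50, in a narrow band beside −0.43 to 0.56 over all genes. The libraries did not overlap for 65 genes that were lower and 1 that was higher in DR1, against 33.2% and 31.5% of all genes tested. The median was −0.61 for genes of the 40S subunit and −0.60 for those of the 60S subunit. The share of genes past a 2-fold change was 10.6% upwards and 8.62% downwards over all genes tested and 0 for ribosomal protein genes, although 3 were lower by that measure without DR1 replicate 2. The comparison shares its AL libraries with that of DR0 and AL.

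The largest falls in DR1 were those of *rps-23*, *rps-9*, *rps-12* and *rpl-28*. *rps-23*, whose protein sits at the decoding centre, was at 3299, 3204 and 3278 CPM in DR0, at 1943, 1988 and 1927 CPM in DR1, and at 3516, 3544 and 3527 CPM in AL. The DR1 libraries were far below the others, and the DR0 libraries were slightly below those of AL. Against AL, its log2 fold change was −0.85 in DR1 (s.e. 0.02, adjusted p = 4.58e-19) and −0.11 in DR0 (s.e. 0.02, adjusted p = 0.000365), and the DR0 value turned to 0.092 under upper quartile scaling.

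*rps-9*, for a protein near the entry of the mRNA channel, was at 4742, 4667 and 4713 CPM in DR0, at 2352, 2346 and 2474 CPM in DR1, and at 4315, 4321 and 4318 CPM in AL. It therefore fell in DR1 and rose in DR0, with −0.85 (s.e. 0.02, adjusted p = 3.59e-19) and 0.12 (s.e. 0.02, adjusted p = 0.000127) on the log2 scale, but the DR0 value was below 0 under quantile normalization and with either trend removed. *rps-12* had almost the same level in DR0, at 1704 ± 6.42 CPM, as in AL, at 1707 ± 24.6 CPM, while DR1 libraries averaged 948 ± 19.0 CPM (SD, n = 3 each). Against AL, *rps-12* fell by 0.85 in DR1, while its DR0 value had an adjusted p of 0.942. For *rpl-28* the values against AL were −0.82 in DR1 and 0.08 in DR0. Its call in DR0 (adjusted p = 0.0463) was lost in 9 of the other fits, among them those without DR0 replicate 1 or 3, DR1 replicate 1 or any 1 of the AL libraries.

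The exception in DR1 was again *rpl-24.2*, with a log2 fold change of 0.56 against AL (s.e. 0.05, adjusted p = 3.41e-10). Without DR1 replicate 3, 4 genes were called higher in DR1. The 7 genes not called all had exons under 400 bases in sum, and ranged from −0.39 for *rpl-29* to 0.17 for *rpl-41.1*.

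**Figure D2:**
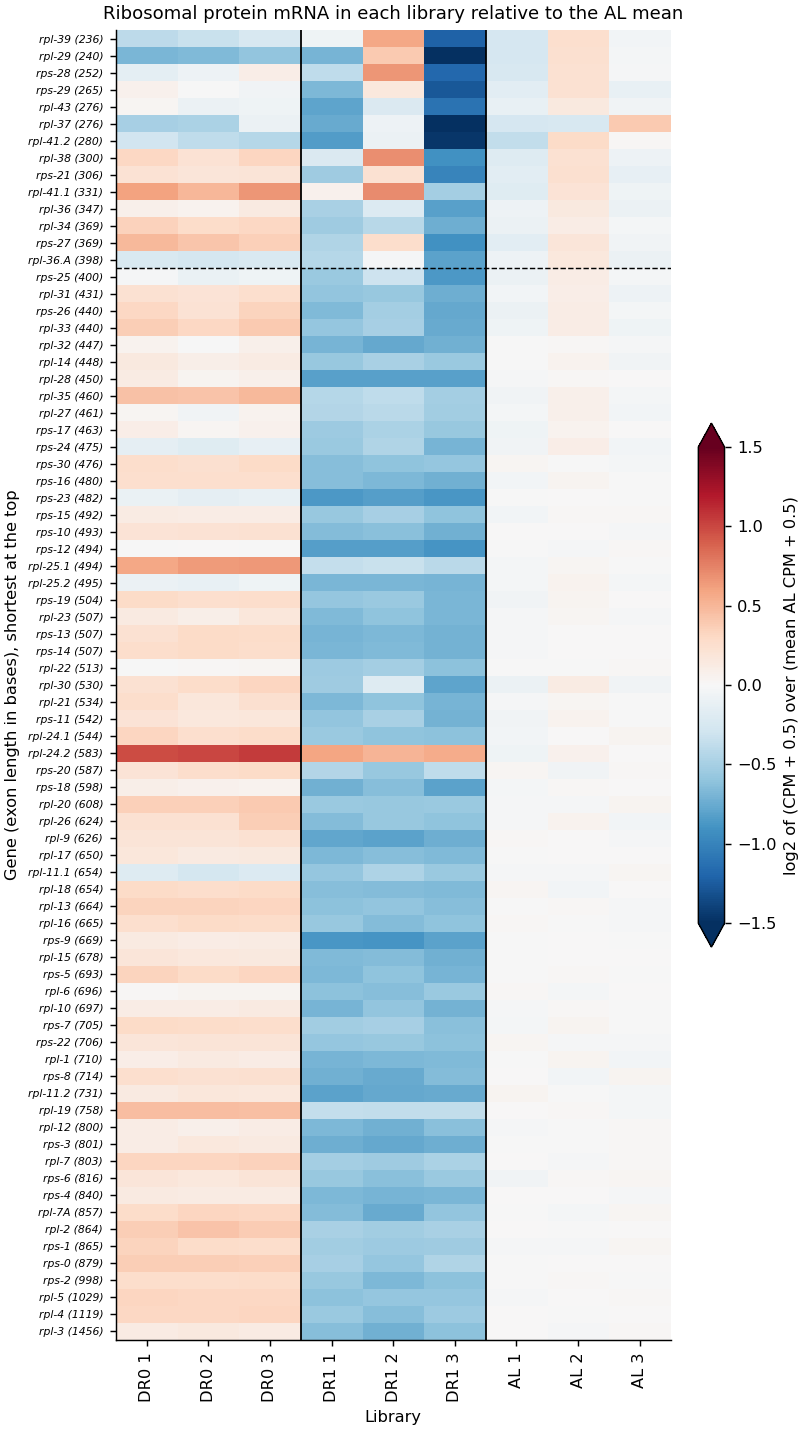
Level of each of the 77 ribosomal protein genes tested (rows, ordered by summed exon length with the shortest at the top) in each of the 9 libraries (columns), as log2 of CPM + 0.5 over the AL mean + 0.5, with red for higher and blue for lower. Below the dashed line at 400 bases the 3 DR1 columns are mostly alike and blue; above it DR1 replicate 2 is redder and DR1 replicate 3 bluer than DR1 replicate 1. Under quantile normalization the median of DR1 against AL was 0.0028.

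The restricted conditions, set against each other, had a larger median difference than either had from AL. Between DR0 and DR1, 70 of the 77 genes were higher in DR0 (90.9%, against 21.2% of all genes tested) and 0 were lower (against 17.8%). At an unadjusted p under 0.05 from edgeR's quasi-likelihood test, 0 were lower too, as with limma-voom and DESeq2. Without DR1 replicate 3, 2 were called lower. The median log2 fold change was 0.81, against 0.0052 over all genes, and stayed above 0 in every fit, with 0.21 under quantile normalization and 0.16 with the trend on expression level removed as the lowest. The libraries did not overlap for 67 genes that were higher and 0 that were lower in DR0, against 25.3% and 23.2% of all genes tested. The largest values were those of *rpl-25.1* (0.99), *rps-9* (0.98), *rps-5* (0.98) and *rpl-9* (0.97). *rps-5*, for a protein at the exit site of the small subunit, was at 3342, 3232 and 3314 CPM in DR0, at 1652, 1745 and 1626 CPM in DR1, and at 2623, 2678 and 2626 CPM in AL. *rpl-9* averaged 1975 ± 29.7 CPM in DR0, 1005 ± 24.1 CPM in DR1 and 1713 ± 25 CPM in AL. For both, the DR1 libraries stood well below the DR0 libraries, with AL between them. No gene passed a 2-fold change, which 1.44% of all genes passed upwards and 1.03% downwards, although 4 did without DR1 replicate 2, 2 without DR1 replicate 3 and 1 without DR0 replicate 1.

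Abundant mRNAs in general were lower in DR1. Of 209 other genes that averaged 500 CPM or more over the conditions, 151 fell and 42 rose between DR1 and AL, with a median log2 fold change of −0.48. These include ribosome genes outside the rule on symbols (W01D2.1, *rla-0*, *rla-1*, *rla-2*, *ubl-1*, *ubq-2* and *rack-1*) and elongation factors, all described below. The 68 ribosomal protein genes at that level had a median of −0.61, with 65 falls. Between DR0 and AL the other abundant genes had a median of 0.06 with 100 rises and 83 falls, and the ribosomal protein genes a median of 0.21 with 51 rises and 3 falls. Between DR0 and DR1 the medians were 0.41 for the other abundant genes and 0.84 for the ribosomal protein genes. The values of the other abundant genes spread more widely, from −0.87 to −0.03 between the quartiles in DR1 against AL, where the ribosomal protein genes lay from −0.68 to −0.55. Whether the fall in DR1 is a property of ribosomal protein genes or of abundant mRNAs was not tested.

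Total counts in place of TMM moved all genes together, and quantile normalization did not. With total counts as the library size, the median over all genes was 0.38 in DR1 against AL, against 0.03 with TMM, and that of the ribosomal protein genes was −0.26. Relative to the median over all genes, the ribosomal protein genes were lower by 0.64 in both cases (−0.64 with TMM and −0.64 with total counts) and by 0.05 under quantile normalization. At 500 CPM or more stood 68 ribosomal protein genes beside 209 others. Quantile normalization and removal of the trend on expression level can therefore also take out a change that these genes share. How much they did so was not tested. Relative to all genes in the same way, DR0 against AL gave 0.17 with TMM, total counts and quantile normalization, 0.28 at a mean CPM minimum of 5, 0.04 with the trend on expression level removed and −0.00014 with the length trend removed.

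**Figure D3:**
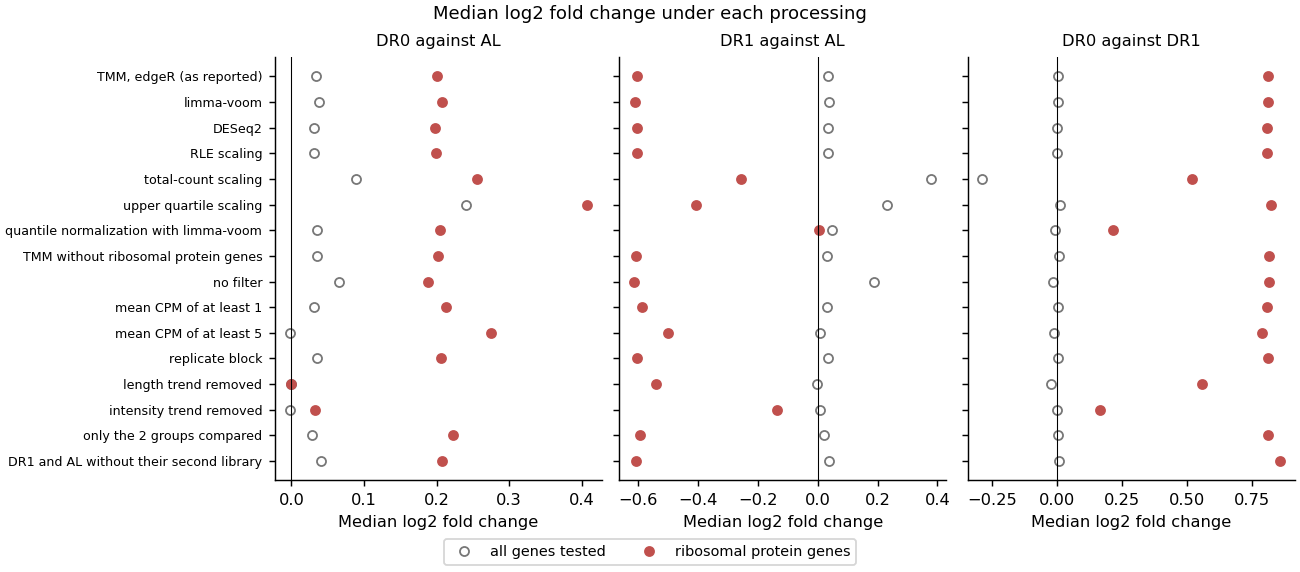
Median log2 fold change (horizontal axes, each with its own range) of the ribosomal protein genes (red) and of all genes tested (open) under each way of processing the counts (rows). In DR0 against AL the red points lie above 0 except with the length trend removed (−0.00057), in DR1 against AL below 0 except under quantile normalization (0.0028), and in DR0 against DR1 above 0 throughout.

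Short ribosomal protein mRNAs varied between libraries of the same condition. Among the 14 genes with under 400 bases of exon, the SD of the log2 level over replicates had a median of 0.06 in DR0, 0.65 in DR1 and 0.21 in AL. For the 63 longer genes it was 0.02 in DR0, 0.04 in DR1 and 0.03 in AL. The short genes moved together: in their median they stood 0.69 above the mean of the DR1 libraries in replicate 2 and 0.63 below it in replicate 3, and 0.23 above the AL mean in AL replicate 2. The same was seen in 72 other genes of that length at 50 CPM or more, which stood 0.31 above in DR1 replicate 2, 0.29 below in DR1 replicate 3 and 0.14 above in AL replicate 2.

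*rpl-38*, for a small protein at the surface of the large subunit, shows the pattern. Its level was 724, 681 and 733 CPM in DR0, 503, 951 and 311 CPM in DR1, and 514, 686 and 556 CPM in AL. The DR1 libraries spanned the range of both other conditions, and the log2 fold change between DR1 and AL was 0.0056 (s.e. 0.21, adjusted p = 0.984) but −0.52 without DR1 replicate 2 and 0.32 without DR1 replicate 3, both called. *rps-28* was at 337, 356 and 403 CPM in DR0, at 289, 591 and 165 CPM in DR1, and at 317, 438 and 369.9 CPM in AL. It gave log2 fold changes of −0.04 in DR0 and −0.11 in DR1 against AL, neither called, while without DR1 replicate 2 the second was a called −0.73. *rpl-39*, for the smallest protein of the peptide exit tunnel, averaged 85.7 ± 4.90 CPM in DR0, 103 ± 57.1 CPM in DR1 and 107 ± 19.4 CPM in AL, with no call in any comparison in the main fit of all libraries. It was called lower in DR0 than in AL with no filter (−0.33) and with the length trend removed (−0.72). In these fits it was also called lower in DR0 than in DR1 (−0.25 and −0.51). The fit of only DR0 and AL called it lower in DR0 as well (−0.30). Between DR1 and AL it was a called −0.54 without DR1 replicate 2 and a called 0.30 without DR1 replicate 3. It was also called lower in DR0 than in AL without either of these libraries, and lower in DR0 than in DR1 without DR1 replicate 3, by 0.62.

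*rpl-29*, *rpl-36.A* and *rpl-37* are also short. *rpl-29* was at 293, 295 and 312 CPM in DR0, at 289, 618 and 166 CPM in DR1, and at 395, 553 and 460 CPM in AL. Its log2 fold change between DR0 and DR1 was −0.25 and not called in the main fit of all libraries. It was called with no filter (−0.25), with the length trend removed (−0.48) and without DR1 replicate 3 (−0.60), but was a called 0.41 without DR1 replicate 2. Between DR1 and AL it was a called −1.05 without DR1 replicate 2. *rpl-36.A*, whose protein touches the exit-site transfer RNA, was called lower in DR1 than in AL, by 0.38 (adjusted p = 0.00323), with levels of 1109, 1466 and 850 CPM in DR1 and 1411, 1658 and 1395 CPM in AL. The ranges of those libraries overlap. The call was lost with DESeq2, with total counts (−0.035) and with upper quartile scaling (−0.18), and the value was above 0 under quantile normalization and with the trend on expression level removed. Between DR0 and AL, *rpl-36.A* was at −0.24 and just missed a call (adjusted p = 0.0525). It was called lower in DR0 with RLE scaling, no filter, a replicate block, either trend removed or only DR0 and AL in the fit, and without DR1 replicate 2 or 3. It was called higher in DR0 than in DR1 without DR1 replicate 2, by 0.36, and with no filter, by 0.14. That value was below 0 under quantile normalization and with either trend removed. *rpl-37* was nearly silent, at 3.92 ± 0.732 CPM in DR0, 3.01 ± 1.74 CPM in DR1 and 5.11 ± 1.52 CPM in AL, and its call in DR1 against AL (log2 fold change −0.80, adjusted p = 0.0420) was lost in 9 of the other fits, among them −0.43 without DR1 replicate 3, −0.51 without AL replicate 3, −0.76 without DR1 replicate 1 and −0.80 without DR0 replicate 2. The main gene for this protein, W01D2.1, has a symbol that the rule does not match.

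Length and fold change were related over the genes in part through these short ones. The Spearman correlation of exon length with log2 fold change over the 77 genes, which share their libraries and are not independent replicates, was 0.36 for DR0 against AL, −0.25 for DR1 against AL and 0.49 for DR0 against DR1. Over the 63 genes of 400 bases or more it was 0.28, −0.0064 and 0.17 in the same comparisons. In these longer genes the counts of calls were the plainest, since 62 of 63 fell and 1 rose in DR1 against AL, 51 rose and 4 fell in DR0 against AL, and all 63 were higher in DR0 than in DR1. Against AL, 7 of the 14 short genes fell in DR1 (50%, beside 23.3% of 515 other genes of that length), and in DR0 3 rose (21.4%, beside 37.9%) and 1 fell (7.14%, beside 17.3%). Between DR0 and DR1, 7 of them were higher in DR0 (50%, beside 23.9%). The shares over all genes tested, of every length, are those given above for each comparison. What the length-linked spread contributes to the medians was not tested beyond the fit with the length trend removed and those without single libraries.

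**Figure D4:**
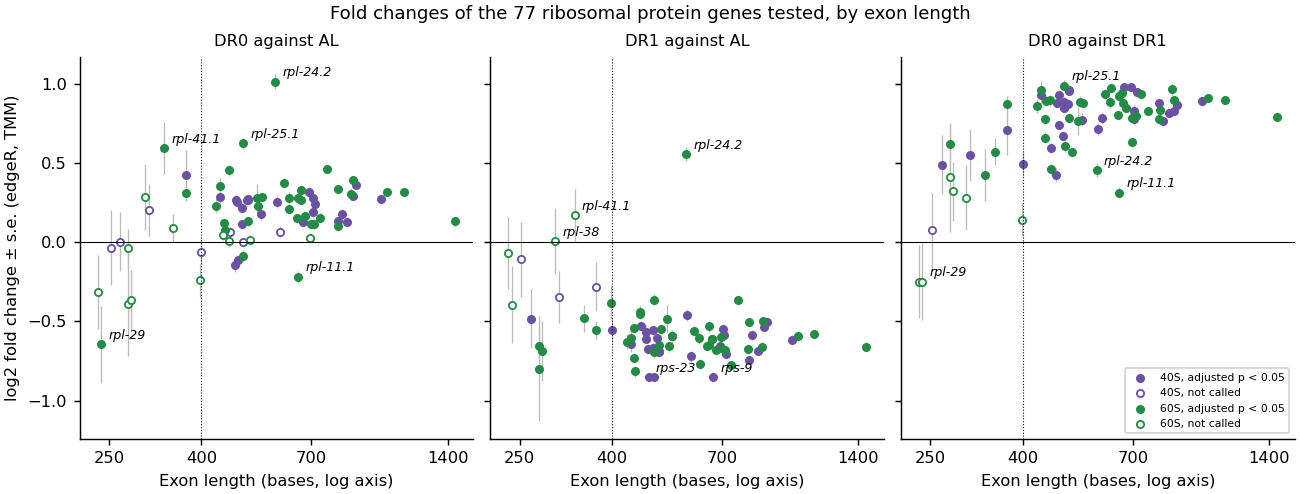
log2 fold change ± s.e. (vertical axis) of each of the 77 ribosomal protein genes tested against summed exon length (bases, log axis) in DR0 against AL, DR1 against AL and DR0 against DR1, with filled points at an adjusted p under 0.05, and 40S genes in purple and 60S genes in green. Right of the dotted line at 400 bases the points form a band with medians of 0.23, −0.61 and 0.85, and *rpl-24.2* stands above it in both comparisons with AL; the median over all 77 genes turned to −0.00057 in DR0 against AL with the length trend removed and to 0.0028 in DR1 against AL under quantile normalization.

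Where the worm has a pair of genes with one number, the genes of a pair often differed. The ratio of their raw counts in a library needs no scaling and is given as a description, with no test. For *rpl-24.2* over *rpl-24.1*, which codes for the RPL-24 of the finished large subunit, the ratio was 0.123, 0.131 and 0.134 in DR0, 0.173, 0.168 and 0.177 in DR1, and 0.0764, 0.0812 and 0.0764 in AL. It was higher in every restricted library than in any AL library, and highest in DR1. *rpl-24.1* itself followed most other genes, with log2 fold changes of 0.28 in DR0 (0.059 and not called with the length trend removed) and −0.59 in DR1 against AL (0.0028 under quantile normalization).

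*rpl-25.1* (X, 4715178 to 4715796) and *rpl-25.2* (I, 8329062 to 8329647) code for a protein near the mouth of the exit tunnel. *rpl-25.1* was at 1039.5, 1081 and 1085 CPM in DR0, at 542, 551 and 525 CPM in DR1, and at 680, 710.0 and 691 CPM in AL. *rpl-25.2* was at 534, 523 and 540.3 CPM in DR0, at 351, 352 and 348 CPM in DR1, and at 553, 588 and 557 CPM in AL. Only the X-linked copy of this pair rose in DR0 against AL, by a log2 fold change of 0.62 (s.e. 0.04, adjusted p = 2.86e-13), and its fall in DR1, of 0.36, was smaller than that of the autosomal copy, of 0.69. The fall of *rpl-25.1* in DR1 was lost with total counts (−0.016), and the value was 0.18 under quantile normalization and 0.0087 with the trend on expression level removed. The count ratio of *rpl-25.1* over *rpl-25.2* was 1.95, 2.07 and 2.01 in DR0, 1.54, 1.57 and 1.51 in DR1, and 1.23, 1.21 and 1.24 in AL, so no condition overlapped another.

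*rpl-11.2* (X, 2241738 to 2242618) and *rpl-11.1* (V, 3585312 to 3586064) code for a protein that enters the large subunit with the smallest ribosomal RNA. *rpl-11.2* was at 2924, 2990.1 and 2955 CPM in DR0, at 1516, 1560 and 1575 CPM in DR1, and at 2728, 2644 and 2595 CPM in AL. *rpl-11.1* was at 917, 878 and 915 CPM in DR0, at 703, 762 and 718 CPM in DR1, and at 1042, 1043 and 1070.3 CPM in AL. In DR0 against AL the X-linked copy rose by 0.15 (adjusted p = 3.71e-05) and the autosomal copy fell by 0.22 (adjusted p = 1.30e-05). The rise was lost with the length trend removed (0.0017) and turned to −0.045 with the trend on expression level removed. The fall was lost under upper quartile scaling (−0.013) and quantile normalization (−0.068). The ratio of *rpl-11.2* over *rpl-11.1* was 3.19, 3.4 and 3.23 in DR0, 2.16, 2.05 and 2.19 in DR1, and 2.62, 2.53 and 2.42 in AL, which puts AL between the restricted conditions for this pair.

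*rpl-41.1* and *rpl-41.2* are neighbours on chromosome I, 699 bases apart, and code for the shortest ribosomal protein. *rpl-41.1* was at 245, 229 and 255 CPM in DR0, at 168, 264 and 113 CPM in DR1, and at 143, 187 and 155 CPM in AL, and rose in DR0 against AL (log2 fold change 0.59, s.e. 0.16, adjusted p = 0.00349), a call that DESeq2 did not make (adjusted p = 0.0829). *rpl-41.2* was at 974, 914 and 885 CPM in DR0, at 665, 1125 and 434 CPM in DR1, and at 922, 1449 and 1203 CPM in AL, with a log2 fold change of −0.37 in DR0 against AL that was not called (adjusted p = 0.0960) and a called −0.69 in DR1 (adjusted p = 0.00312). The DR1 call was lost with DESeq2 (−0.68), with total counts (−0.34), under quantile normalization (−0.16) and with the trend on expression level removed (−0.29). Both are short and their levels in DR1 differ by more than 2-fold between libraries, but the ratio of their counts was steadier, at 0.252, 0.25 and 0.288 in DR0, 0.253, 0.235 and 0.261 in DR1, and 0.155, 0.129 and 0.129 in AL. The call of *rpl-41.1* between DR0 and DR1 (adjusted p = 0.0412) was lost in 13 of the other fits, among them those without any 1 of the DR0 libraries, DR1 replicate 1 or 3 or AL replicate 3. Without DR1 replicate 3, *rpl-41.1* was also called higher in DR1 than in AL, by 0.43. *rpl-41.2* was called lower in DR0 than in AL without DR1 replicate 2, DR1 replicate 3 or AL replicate 1. It was also called lower there with no filter, with either trend removed and with only DR0 and AL in the fit (−0.34). It was called higher in DR0 than in DR1 without DR1 replicate 2, by 0.75, with no filter, by 0.32, and with a replicate block, by 0.41. Genes for one protein can be close in sequence, and by its defaults htseq-count leaves out reads that align equally well to more than 1 place, so the separate levels of a pair are uncertain.

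**Figure D5:**
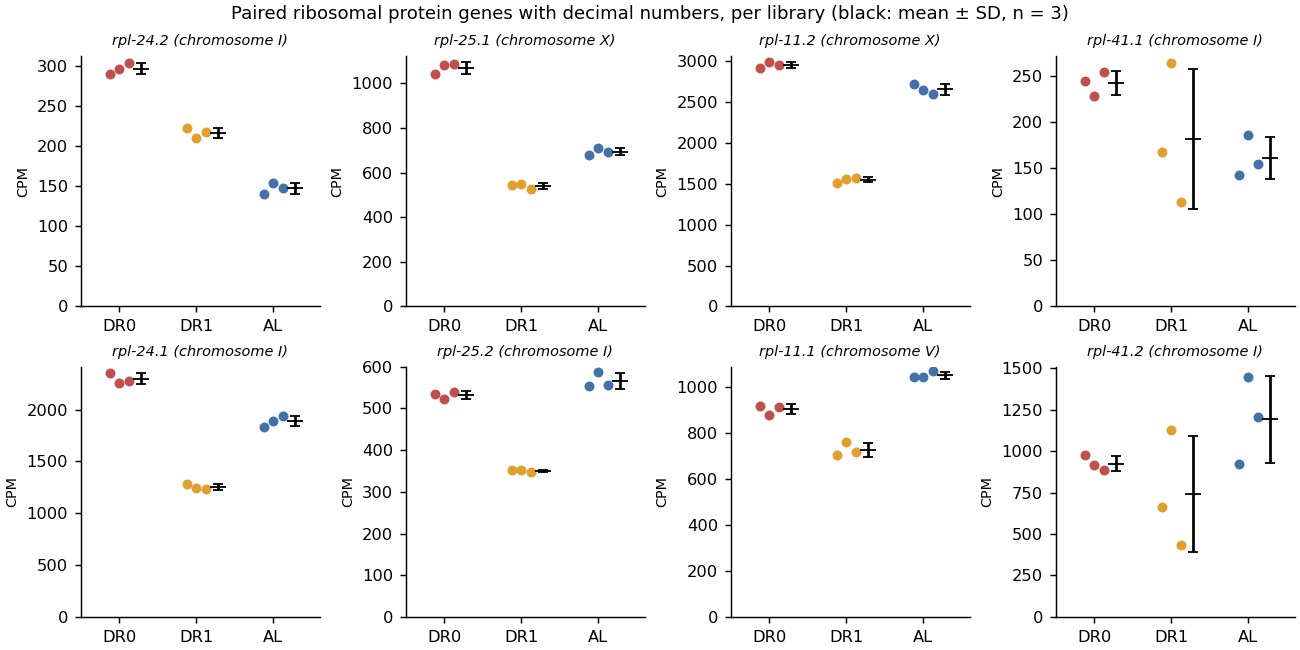
CPM (vertical axes, each from 0 and with its own range) of 4 pairs of ribosomal protein genes that share a number, in DR0, DR1 and AL. Each coloured point is a library and the black mark is the mean ± SD (n = 3); *rpl-24.2* is lowest in AL, *rpl-25.1* and *rpl-11.2* on the X chromosome are highest in DR0, and their autosomal partners *rpl-25.2* and *rpl-11.1* are highest in AL.

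The genes with the most mRNA per length in AL were *rpl-10*, *rps-23* and *rpl-27*, at 8980 RPKM, 7321 RPKM and 6596 RPKM. *rpl-10*, for a protein that joins the large subunit in its last maturation step, was at 6742, 6745 and 6873 CPM in DR0, at 3860, 4138 and 3840 CPM in DR1, and at 6189, 6338 and 6249 CPM in AL. It was the ribosomal protein gene with the highest CPM in each condition, and it rose in DR0 by 0.12 and fell in DR1 by 0.67 against AL. The DR0 value was below 0 under quantile normalization and with either trend removed, and the DR1 call was lost with the trend on expression level removed (−0.052). *rpl-27* averaged 3053 ± 115 CPM in DR0, 2221 ± 96.5 CPM in DR1 and 3041 ± 135 CPM in AL. Its log2 fold change was 0.0058 in DR0 (adjusted p = 0.895) and −0.45 in DR1 against AL (adjusted p = 7.15e-11), the second of which was 0.12 under quantile normalization and 0.079 with the trend on expression level removed. With either trend removed the first was a called fall, and under upper quartile scaling a called rise.

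*rps-26* and *rpl-35* are used as reference genes in quantitative PCR of worms, which presumes a level that does not move. *rps-26* was at 1629, 1529 and 1656 CPM in DR0, at 832, 927 and 776 CPM in DR1, and at 1242, 1424 and 1289.5 CPM in AL. The conditions did not overlap. Its log2 fold change was 0.28 in DR0 (s.e. 0.05, adjusted p = 4.87e-05) and −0.64 in DR1 (s.e. 0.05, adjusted p = 1.59e-10) against AL, the second of which was 0.06 under quantile normalization. The call in DR0 was lost with the length trend removed (0.014). *rpl-35* was at 2032, 2025 and 2096 CPM in DR0, at 1112, 1148 and 1052 CPM in DR1, and at 1446, 1579 and 1473 CPM in AL. Its log2 fold change was 0.45 in DR0 (s.e. 0.04, adjusted p = 1.64e-10) and −0.44 in DR1 (s.e. 0.04, adjusted p = 2.15e-10) against AL, the second of which was 0.23 under quantile normalization and 0.02 with the trend on expression level removed. Between DR0 and DR1 they differed by 0.93 and 0.89 on the log2 scale.

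*rps-6* codes for the protein that S6 kinase, a target of TOR, phosphorylates in yeast and mammals. Its mRNA was at 1674, 1654 and 1692 CPM in DR0, at 1001, 956 and 1004 CPM in DR1, and at 1430.5, 1502 and 1511 CPM in AL. It rose in DR0 by 0.18 (adjusted p = 4.68e-05) and fell in DR1 by 0.59 (adjusted p = 1.01e-13) against AL, near the median of the other genes in both, and was 0.14 in DR1 under quantile normalization. The call in DR0 was lost with the length trend removed (0.041) and with the trend on expression level removed (0.011).

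Ribosome genes that do not carry an *rps* or *rpl* symbol moved with the ribosomal protein genes. These were *rla-0*, *rla-1* and *rla-2* for the stalk that recruits translation factors, *ubl-1* and *ubq-2* for ribosomal proteins fused to ubiquitin-like leaders, and *rack-1* for a scaffold of the small subunit. Of these 6, 4 rose (66.7%, beside 29.6% of all genes tested) and 1 fell (16.7%, beside 31%) in DR0 against AL (median 0.12). In DR1 against AL 6 fell (100%, beside 31.6%) and 0 rose (beside 28.5%), with a median of −0.76. All 6 were higher in DR0 than in DR1 (beside 21.2% of all genes), with a median of 0.88. *rack-1* had log2 fold changes of 0.28 in DR0 and −0.70 in DR1, and *rla-1* of −0.24 in DR0 and −1.15 in DR1 against AL.

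Elongation factors, which serve the finished ribosome, gave 6 rises and 1 fall of 8 in DR0 (median 0.23) and 1 rise and 7 falls in DR1 (median −0.62) against AL. In shares, 75% rose and 12.5% fell in DR0, and 12.5% rose and 87.5% fell in DR1. Over all genes tested the shares were 29.6% and 31% in DR0 and 28.5% and 31.6% in DR1. The rise in DR1 was that of *eef-1A.2*, one of the genes for the factor that brings transfer RNA, with log2 fold changes of 0.71 in DR0 and 0.41 in DR1. *eef-1B.1* fell most in DR1, by 0.78, and *iff-2* rose in DR0 by 0.69.

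The genes listed for ribosome biogenesis, most of them for the making and assembly of the particles in the nucleolus, did not share the rise in DR0. The assembly factor *rpl-24.2* (*rsl-24D1*) was not in this list, and rose in DR0 by 1.01 and in DR1 by 0.56 against AL. Of the 27 listed, 0 rose (1 at an unadjusted p under 0.05 from edgeR's quasi-likelihood test) and 15 fell in DR0 against AL (median −0.19). In DR1, 7 rose and 6 fell (median −0.05). In shares, 55.6% fell in DR0, beside 31% of all genes tested, and 25.9% rose and 22.2% fell in DR1, beside 28.5% and 31.6%. *pro-3* and *rrp-8* had the lowest called values in DR0, at −0.75 and −0.71. In DR1 *ncl-1*, which is not itself an assembly factor, fell by 0.58. *fib-1*, the fibrillarin that modifies ribosomal RNA, fell by 0.50, while *pro-2* rose by 0.49 and *lpd-7* by 0.30. Of 15 genes of the TOR pathway and translation control, 4 rose and 8 fell in DR0 (median −0.18) and 3 rose and 5 fell in DR1 (median −0.10). Those shares, 26.7% and 53.3% in DR0 and 20% and 33.3% in DR1, are to be read against 29.6% and 31% of all genes in DR0 and 28.5% and 31.6% in DR1. Among the 15 genes *larp-1*, whose mammalian relative binds ribosomal protein mRNAs, fell in DR0 by 0.60 and *aak-2*, a catalytic subunit of AMP-activated kinase, rose by 0.60. Of 71 genes of the mitochondrial ribosome, 14 rose and 33 fell in DR0 (median −0.17) and 5 rose and 42 fell in DR1 (median −0.30), which is 19.7% and 46.5% in DR0 and 7.04% and 59.2% in DR1. None of these lists had a median as low as that of the cytosolic ribosomal protein genes in DR1, apart from the 6 other ribosome genes and the elongation factors. These counts are with TMM scaling, and the lists were not refitted under the other scalings or with a trend removed. Summed exon length ran from 471 bases (*rpoa-12*) to 5687 bases (*rpoa-1*) in the biogenesis list. Its median was 532 bases for the ribosomal protein genes. Between DR0 and AL, 515 genes under 400 bases outside the ribosomal protein genes had a median of 0.43. With the length trend removed, the median of the ribosomal protein genes there was −0.00057. The differences between lists, and the part of length in them, were not tested.

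Whole worms mix tissues, and in bulk RNA fewer cells of a type and less RNA per cell cannot be told apart. All markers of the germ line and oocytes (24), body wall and pharyngeal muscle (10), the intestine (7), neurons (8) and embryos (7) that the file holds were above 0 in every library. Against AL, 22 germ line markers fell in DR0 (91.7%, beside 31% of all genes tested) and 1 rose (4.17%, beside 29.6%), with a median of −0.66. In DR1, 23 fell (95.8%, beside 31.6%) and 1 rose (4.17%, beside 28.5%), with a median of −1.5. Their summed level was 5645 to 5772 CPM in DR0, 2843 to 3029 CPM in DR1 and 8765 to 9022 CPM in AL. It was thus lowest in DR1, as was that of the ribosomal protein genes, but highest in AL, where the ribosomal protein genes were below DR0. Of the muscle markers, 4 rose (40%) and 4 fell (40%) in DR0 and 1 rose (10%) and 7 fell (70%) in DR1 against AL. Their summed level was 1626 to 1650 CPM in DR0, 779 to 833 CPM in DR1 and 1787 to 1832 CPM in AL. The part of these tissues in the ribosomal protein values was not tested.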

How the data were processed

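For 9 libraries of poly(A)-enriched RNA, the authors deposited a table of raw read counts by gene. Per the paper's methods, reads were aligned to WBcel235 with STAR 2.6.0a and counted over exons without strand by htseq-count 0.10.0 with Ensembl release 89. The submitters' processing notes name STAR 2.73a and edgeR 3.24.3 instead. The counts were tested with edgeR 4.0.16 in R 4.3.3: filterByExpr, TMM scaling, 1 mean per condition over all 9 libraries, glmQLFTest, and Benjamini–Hochberg adjustment over 14332 genes. The s.e. of a log2 fold change is its size divided by the square root of the F statistic. The common biological coefficient of variation was 6.59%. In simulated data with the same library sizes, genes set to 0.5 of their level were called in 86.7% of cases between DR0 and AL, in 77.1% between DR1 and AL and in 81.2% between DR0 and DR1. In the same order, the rates were 70%, 68% and 70% at 0.67 of the level, and 76%, 67.3% and 60% at 1.5 times the level. The genes changed were drawn at random over all levels and all had the common spread. The rates therefore do not describe the ribosomal protein genes, abundant or short.

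Exon lengths and positions are from Ensembl release 115. Genes named are the 4 highest and 4 lowest log2 fold changes per comparison, symbols with a decimal number, *rps-26*, *rpl-35*, *rps-6* and the 3 highest RPKM in AL, and up to 2 called genes per direction of each related list. The genes and lists were chosen with earlier results of these data known. The symbols *nol-1*, *nol-5*, *grwd-1*, *eft-2*, *eft-3*, *eft-4*, *opt-2* and *elt-5* did not match the file.

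Alternatives were limma-voom (limma 3.58.1), DESeq2 1.42.0, RLE, total-count, upper quartile and quantile scaling, TMM without the ribosomal protein genes, no filter, mean CPM minimums of 1 and 5, a replicate block, removal of smooth trends on length or expression level, a test against a fold change of 2, only 2 conditions in the fit, and leaving out each library. Leaving out DR1 and AL replicate 2 together was chosen after seeing the data. Figures used matplotlib 3.10.9.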

Additional observations from a re-analysis of the deposited data

How the results depend on the processing

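limma-voom, DESeq2, RLE scaling, TMM without the ribosomal protein genes and fits of only the compared conditions moved no median of the ribosomal protein genes by more than 0.0622 on the log2 scale and no count of their calls by more than 1.5 times. In DR0 against AL, where 54 genes were higher and 5 lower with a median log2 fold change of 0.20, the median was 0.41 with upper quartile scaling, 0.28 at a mean CPM of at least 5, −0.00057 with the length trend removed and 0.033 with the intensity trend removed. Genes called higher were 23 with the length trend removed and 29 with the intensity trend removed. Of all 14332 genes, 3965 and 3848 were higher in these fits. Genes called lower were 3 with total counts, 0 with upper quartile scaling (0 also past both thresholds), 1 at a mean CPM of at least 5, 25 with the length trend removed and 20 with the intensity trend removed. In the same order, 4060, 3009, 3556, 4685 and 4227 of all genes tested were lower, of 10007 tested at that CPM minimum and 14332 otherwise. The 1 gene past 2-fold was 0 with no filter, with either trend removed and in the test against a fold change of 2, and 1 gene was lower past 2-fold with the length trend removed. Leaving out single libraries gave 2 to 8 genes lower and 0 to 1 past 2-fold.

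In DR1 against AL, where 1 gene was higher and 69 lower with a median of −0.61, the median was −0.26 with total counts, −0.41 with upper quartile scaling, 0.0028 with quantile normalization, −0.50 at a mean CPM of at least 5, −0.54 with the length trend removed and −0.14 with the intensity trend removed. Genes called higher were 2 with total counts, 14 with quantile normalization, 2 with no filter, 3 with the intensity trend removed and 1 to 4 without single libraries. In the fits with all libraries, 7053, 4234, 4089 and 3943 of all genes tested were higher, of 25161 with no filter and 14332 otherwise. Genes called lower were 18 with quantile normalization and 45 with the intensity trend removed. Of all 14332 genes, 3685 and 4091 were lower in these fits. Past 2-fold, 1 gene was lower with quantile normalization, 1 with the intensity trend removed, 1 without replicate 2 of DR1 and AL and 0 to 3 without single libraries.

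In DR0 against DR1, where 70 genes were higher and 0 lower with a median of 0.81, the median was 0.52 with total counts, 0.21 with quantile normalization, 0.56 with the length trend removed and 0.16 with the intensity trend removed. Genes called lower were 4 with quantile normalization, 2 with no filter, 3 with the length trend removed, 6 with the intensity trend removed and 0 to 2 without single libraries. In the fits with all libraries, 2859, 2492, 2229 and 2761 of all genes tested were lower, of 25161 with no filter and 14332 otherwise. Past 2-fold, 4 genes were higher without replicate 2 of DR1 and AL and 0 to 4 without single libraries. The share of counts was 16% in DR0, 11.4% in DR1 and 13.7% in AL in a total without vitellogenins, and 17.5%, 12.3% and 14.6% without the 20 other top genes.

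For the 26 genes named, 1869 recomputed values included 79 calls lost, 68 gained and 45 values that changed sign with a call under either setting. A further 55 values changed sign with no call under either. With quantile normalization the log2 fold change was 0.11 for *rpl-11.1*, 0.27 for *rpl-19*, 0.0028 for *rpl-24.1*, 0.18 for *rpl-25.1*, 0.12 for *rpl-27*, 0.23 for *rpl-35*, 0.25 for *rpl-36.A*, 0.064 for *rps-26* and 0.14 for *rps-6* in DR1 against AL. It was −0.15 for *rpl-10*, 0.066 for *rpl-25.2* and −0.0697 for *rps-9* in DR0 against AL, and −0.036 for *rpl-10*, −0.18 for *rpl-11.1*, −0.19 for *rpl-27* and −0.37 for *rpl-36.A* in DR0 against DR1. With the intensity trend removed it was −0.14 for *rpl-10*, −0.045 for *rpl-11.2*, −0.20 for *rpl-27*, −0.054 for *rpl-28* and −0.10 for *rps-9* in DR0 against AL. It was then 0.18 for *rpl-19*, 0.0087 for *rpl-25.1*, 0.079 for *rpl-27*, 0.019 for *rpl-35* and 0.056 for *rpl-36.A* in DR1 against AL, and −0.0863 for *rpl-10*, −0.22 for *rpl-11.1*, −0.28 for *rpl-27*, −0.46 for *rpl-36.A* and −0.00836 for *rps-23* in DR0 against DR1. With the length trend removed it was −0.0438 for *rpl-10*, −0.25 for *rpl-27*, −0.19 for *rpl-28* and −0.045 for *rps-9* in DR0 against AL, and −0.17 for *rpl-36.A* in DR0 against DR1. With upper quartile scaling it was 0.12 for *rpl-25.2*, 0.20 for *rps-12* and 0.092 for *rps-23*, and at a mean CPM of at least 5 it was 0.069 for *rps-12*, all in DR0 against AL. Without single libraries it ranged from −0.60 to 0.41 for *rpl-29* in DR0 against DR1, and in DR1 against AL from −0.52 to 0.32 for *rpl-38* and from −0.54 to 0.30 for *rpl-39*, with the ends set by DR1 replicates 2 and 3. Without replicate 2 of both DR1 and AL it was 0.41 for *rpl-29* and −0.40 for *rpl-38*. The causes were not tested.

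The labels number the libraries 1 to 3 in each condition, but over all genes the deviations of same-numbered libraries had an r of −0.02 to 0.08, so the numbers were not read as pairs. The highest r was that of replicate 2 of DR1 and AL, in both of which the short genes stood above the mean of the condition. With the replicate number as a block, 53 genes were higher and 5 lower in DR0 against AL (median 0.21), 1 higher and 71 lower in DR1 against AL (median −0.61), and 71 higher in DR0 than in DR1 (median 0.81). Of all 14332 genes, 4176 were then higher and 4413 lower in DR0 against AL. In DR1 against AL 4025 were higher and 4510 lower, and 3003 were higher in DR0 than in DR1. With 2 libraries left in a condition, its spread was estimated with that of the others.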

Other observations

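W01D2.1, a gene of 323 bases of exon that RefSeq names *rpl-37.1*, lies outside the rule on symbols and carries most of the mRNA for this protein. Its level was 863, 789 and 843 CPM in DR0, 522, 762 and 410.1 CPM in DR1, and 851, 1028 and 833 CPM in AL. The log2 fold change was −0.12 in DR0 (adjusted p = 0.410) and −0.68 in DR1 (adjusted p = 4.68e-05) against AL from edgeR's quasi-likelihood test, so it resembled the other short ribosomal protein genes in its spread within DR1.

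The 13 ribosomal protein genes with a small nucleolar RNA in an intron had median log2 fold changes of 0.27 in DR0 and −0.61 in DR1 against AL, beside 0.19 and −0.60 for the 64 tested genes without one. The difference was not tested.

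The summed level of 7 intestine markers was 570 to 599 CPM in DR0, 446 to 481 CPM in DR1 and 1415 to 1440 CPM in AL. Most of it was *act-5*, at 922 CPM in AL. Against AL, 2 markers rose (28.6%) and 4 fell (57.1%) in DR0, and likewise in DR1. The shares over all genes tested were 29.6% and 31% in DR0 and 28.5% and 31.6% in DR1. *ges-1* and *elt-7* rose in both conditions, and *elt-2* was called in neither. The summed level of 8 neuron markers was 529 to 542 CPM in DR0, 394 to 409 CPM in DR1 and 403 to 422 CPM in AL. Most of it was *snb-1*, at 306 CPM in AL. Against AL, 2 neuron markers rose (25%) and 1 fell (12.5%) in DR0, and as many in DR1. The summed level of 7 markers of embryonic transcription was 88.6 to 95.9 CPM in DR0, 89 to 96.3 CPM in DR1 and 72.8 to 80.5 CPM in AL. Of these, 3 rose (42.9%) and 1 fell (14.3%) in DR0, and 2 rose (28.6%) and 0 fell in DR1 against AL.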
